A study of Schizosaccharomyces pombe with 23 samples.

Results

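DNA polymerase usage was compared between *nup132Δ* and WT fission yeast (*Schizosaccharomyces pombe*) in which the replication fork barrier was inactive (RFB OFF). The comparison rests on 2 of 23 Pu-Seq libraries, the Pol δ libraries of strain KK1515 (*nup132Δ*) and strain KK1467 (WT). They were chosen by genotype as the deep Pol δ libraries with *rtf1* deleted. A further WT RFB OFF Pol δ library (KK1468) and the *nup132Δ* RFB OFF Pol ε library (KK1520) held 7167 and 987 counts and were left out of the comparison. Both strains carried the Pol δ allele cdc6-L591G, the ribonucleotide repair mutation rnh201-RED, *rtf1* replaced by NAT, and the phleomycin-marked RTS1 barrier on chromosome II (Rura-ChrII in the labels), with ura4-D18, ade6-704 and leu1-32. They differ in the labels by the deletion of *nup132* alone. Cells of both were grown in YE at 30C to log phase. Each genotype is represented by 1 strain and 1 library, so no p-value is given for any difference, and intervals cover counting error only.

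Nup132 is a nucleoporin of the outer ring of the nuclear pore, the relative of vertebrate Nup133. The paper that produced these libraries used the strains to follow forks restarted at an active barrier, and the RFB OFF strains give the polymerase usage of unperturbed forks. In Pu-Seq, a mutant polymerase leaves ribonucleotides in the strand it makes, and these sites are mapped on each strand. Pol ε makes the leading strand and Pol δ the lagging strand, so a fork moving rightward carries Pol ε on the Watson strand and Pol δ on the Crick strand. The Watson share, the counts on the Watson strand over the counts on both strands, is therefore low for Pol δ where most forks move rightward and high where most move leftward. At an origin, where forks leave to both sides, the Pol δ Watson share falls from left to right. Fission yeast origins are AT-rich intergenic stretches without a consensus sequence, and each fires in only a fraction of cell cycles.

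Both deletions were seen in the counts. The 12 bins of *nup132* (a WD repeat nucleoporin gene on chromosome I) held 84 counts in *nup132Δ* and 4821 in WT. Relative to the flanking bins these are 0.0227 in *nup132Δ* and 1.08 in WT. Over the libraries of the series with at least 10 counts per bin, without 2 *rpn10Δ* libraries labelled RFB ON that held few *rtf1* counts, this ratio was 0.0139 to 0.0227 in 9 libraries labelled with the deletion and 1.03 to 1.21 in 9 without it. At *rtf1*, whose product arrests forks at RTS1, the ratio was 0.0392 in *nup132Δ* and 0.0458 in WT, against 0.608 to 0.814 in 14 RFB ON libraries. The totals were 14214799 counts in *nup132Δ* and 17000711 in WT, or 339 and 406 counts per bin of 300 bp. Shares were computed in windows of 3 kb, of which 4168 of 4192 were used, the others lying within 30 kb of the barrier or at the deleted genes. A window held a median of 3096 counts in *nup132Δ* and 3698 in WT, with lowest values of 700 in *nup132Δ* and 1199 in WT.

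Origins were located without the Pol δ libraries, as local maxima of the rise in Watson share in the 2 WT RFB OFF Pol ε libraries (KK1473 and KK1474). These carry the Pol ε allele cdc20-M630F in place of cdc6-L591G and are otherwise labelled as KK1467. A rise of at least 0.20 from the 3 kb on the left to the 3 kb on the right gave 433 origins with a median spacing of 24.6 kb, of which 431 lie over 30 kb from the barrier. A site used as an origin only in *nup132Δ* cannot enter this set. Positions are those of the deposited files. On chromosome I these line up with the reference build ASM294v3 to within 25 bp, judged by how the counts of both strands follow base composition. On chromosome II right of the barrier and on chromosome III the offsets were -1925 and 1775 bp, so genes and sequences are given for chromosome I only.

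Sequences are shown for 4 chromosome I origins that mark the range of the results: the origin with the highest Pol ε rise (beside *lsk1*), the pair with a lowered fall in *nup132Δ* that have a clear fall in WT (beside *rpf2* and *mdb1*), and the origin with the highest value relative to WT on that chromosome (beside *ura3*). Each is the most AT-rich stretch of 100 bases within 1.5 kb of the origin and outside every annotated gene, on the + strand of ASM294v3 (RefSeq), with the longest uninterrupted run of A and T in capitals.
lsk1 origin, chrI:3952778-3952877: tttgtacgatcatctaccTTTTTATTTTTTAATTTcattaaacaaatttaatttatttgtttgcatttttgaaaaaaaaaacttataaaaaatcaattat
rpf2 origin, chrI:3897449-3897548: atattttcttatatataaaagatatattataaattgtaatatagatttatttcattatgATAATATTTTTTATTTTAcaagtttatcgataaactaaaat
mdb1 origin, chrI:2882682-2882781: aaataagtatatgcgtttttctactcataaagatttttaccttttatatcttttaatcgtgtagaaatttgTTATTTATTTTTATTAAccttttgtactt
ura3 origin, chrI:1387297-1387396: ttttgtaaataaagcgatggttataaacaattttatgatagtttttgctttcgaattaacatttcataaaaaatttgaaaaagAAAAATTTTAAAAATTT

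The *lsk1* stretch lies between *saf2* and *lsk1*, which encodes a cyclin-dependent kinase, and both genes point away from it. It is 85% A and T, a level met by 1.201% of all intergenic 100-base stretches of the chromosome. The *rpf2* stretch lies between *dlc2*, a dynein light chain gene, and *rpf2*, which encodes a Brix domain protein of ribosome assembly. Its 89% A and T was met by 0.206% of intergenic stretches. The *mdb1* stretch, with 80% A and T (met by 6.76%), starts 0.5 kb from SPACUNK4.15 and ends 0.011 kb from the 3′ end of *mdb1*, which encodes a BRCT domain protein. The *ura3* stretch, with 83% (met by 2.49%), separates *ura3*, the gene for dihydroorotate dehydrogenase, from *cdc17*, and both point away from it. The runs in capitals span 17, 18, 17 and 17 bases in the order given, so the lowered and the other origins shown have runs of like length.

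Genome-wide, the strand bias of Pol δ along the WT Pol ε map was slightly smaller in *nup132Δ* than in WT. The slope of the Pol δ Watson share on the mean WT Pol ε Watson share was -0.754 in *nup132Δ* and -0.820 in WT, a ratio of 0.920. By chromosome the ratio was 0.915 for I, 0.909 for II and 0.947 for III (SD 0.0205 over the 3 chromosomes). The correlation across windows, which are not independent replicates, was -0.840 in *nup132Δ* and -0.884 in WT. The SD of the shares over windows was 0.204 in *nup132Δ* and 0.210 in WT, so that this measure of the bias gave a ratio of 0.969, nearer to 1. Other Pol δ libraries show how far this quantity varies. The WT RFB ON library (KK1471, with Rtf1 expressed) had a ratio of 1.05 to the same WT RFB OFF library. The 4 *nup132Δ* RFB ON libraries had 0.540 (KK1901), 0.679 (KK1902), 0.707 (KK1518) and 0.841 (KK1517). In the labels, KK1901 and KK1902 carry nup132::Hygro, while KK1518 and KK1517 carry nup132{delta}, as KK1515 does. All 4 and KK1471 carry Nat:ADH1:rtf1. These 4 *nup132Δ* RFB ON libraries differ among themselves by more than the RFB OFF *nup132Δ* library differs from WT, also within each deletion label.

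**Figure D1:**
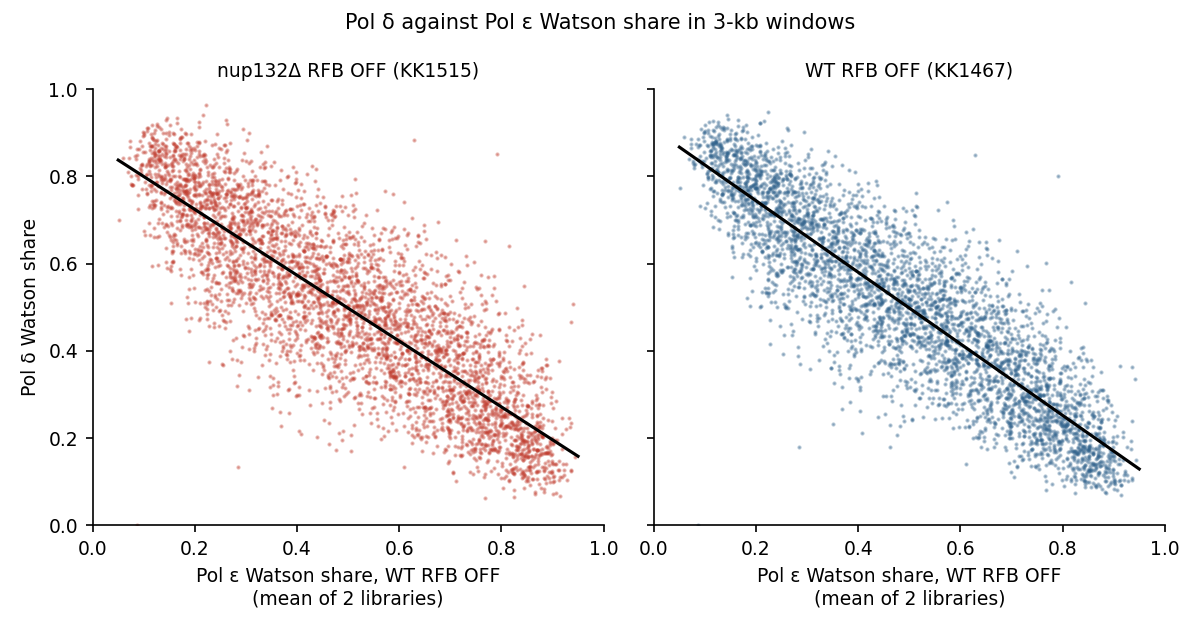
Each point is a 3-kb window, with the Watson share of Pol δ on the vertical axis and the mean Watson share of the WT RFB OFF Pol ε libraries on the horizontal axis, for *nup132Δ* (left) and WT (right). Lines are least-squares fits, with slopes of -0.754 in *nup132Δ* and -0.820 in WT, and the cloud is broader in *nup132Δ*.

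In windows of both fork directions, the mean Pol δ share lay nearer to 0.5 in *nup132Δ*. The slope and these classes rest on the WT Pol ε map. Places where *nup132Δ* departs from that map also draw its means toward 0.5, so a smaller bias of single forks is not shown. Windows were classed by the WT Pol ε share as rightward (at least 0.75), leftward (at most 0.25) or mixed (0.40 to 0.60). In 735 rightward windows the Pol δ Watson share averaged 0.249 in *nup132Δ* and 0.229 in WT, and 77.6% of these windows were higher in *nup132Δ*. In 770 leftward windows it averaged 0.746 in *nup132Δ* and 0.766 in WT, and 23.0% were higher in *nup132Δ*. In 1086 mixed windows the means were 0.498 in *nup132Δ* and 0.497 in WT, with 49.7% higher. The shares in rightward, leftward and mixed windows had SDs of 0.106, 0.106 and 0.121 in *nup132Δ*. In WT these SDs were smaller, at 0.0946, 0.0965 and 0.111. The mean differences were 0.0197 (rightward) and -0.0203 (leftward), and single windows spread about them with SDs of 0.0272 and 0.0264. The gap between leftward and rightward means was 0.496 in *nup132Δ* and 0.537 in WT, and it was 0.561 in WT RFB ON and 0.291 to 0.453 in the *nup132Δ* RFB ON libraries.

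Window by window, the genotypes were close. The shares of *nup132Δ* and WT correlated at 0.987 across windows, and 88.0% of windows differed by less than 0.05. The difference had an SD of 0.0334 over windows, about 3 times the median counting error of 0.0109. The comparison of WT RFB ON with WT RFB OFF, which shares the WT library, had an SD of 0.0266 at a counting error of 0.0148. The 2 WT Pol ε libraries, of 1 genotype, had 0.0162 at 0.0113. A difference of at least 0.10 was found in 13 windows higher in *nup132Δ* (0.312% of windows) and 17 lower (0.408%). After the WT share was shrunk about its mean by the factor 0.920, 11 windows were higher (0.264%) and 18 lower (0.432%) by at least 0.10, in 9 and 12 runs of adjacent windows. These departures from the scaled WT share had an SD of 0.0331, so the genome-wide factor accounted for little of the spread. In WT RFB ON against RFB OFF, 7 windows were higher and 9 lower by the same rule. With windows of 1.5 kb, 55 were higher and 71 lower, and with windows of 6 kb 2 were higher and 4 lower. The values next to the limit were 0.1001 and 0.0969 on the higher side and -0.1001 and -0.0981 on the lower side.

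The 5 largest negative departures lay on chromosomes I and II, the first of them toward the right end of chromosome I. On chromosome I from 5523 to 5532 kb, the share was 0.436 in *nup132Δ* (6340 counts) and 0.584 in WT (8141 counts). This stretch holds *pfl9*, which encodes a cell-surface glycoprotein, with SPAC869.01 and SPAC186.02C. On chromosome II from 1452 to 1458 kb the share was 0.480 in *nup132Δ* and 0.628 in WT. From 3891 to 3897 kb of chromosome I, over the chaperone gene *hsp90*, the diphthamide gene *dph4* and *dlc2*, it was 0.410 in *nup132Δ* and 0.536 in WT, immediately left of the *rpf2* origin. The windows at 4353 to 4359 kb (over *arp42*, *usp108*, *eng2* and *ayr1*) had 0.508 in *nup132Δ* and 0.634 in WT. At 4515 to 4518 kb, over the meiotic RNA-binding gene *mei2* with *omt2* and *apc14*, the share was 0.492 in *nup132Δ* and 0.624 in WT. Each of these 5 differences had a counting interval that excluded 0, which their choice by size in the same counts made likely.

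Among the positive departures, the top value came from the window with the fewest counts. On chromosome II from 693 to 696 kb the share was 0.507 in *nup132Δ* (700 counts) and 0.336 in WT (1199 counts). On chromosome I, the window at 1083 to 1086 kb (over *meu31* and *sle1*) had 0.571 in *nup132Δ* and 0.425 in WT. A stretch of 3 windows at 2889 to 2898 kb, from *iph1* to the calcium ATPase gene *cta4* and right of the *mdb1* origin, had 0.591 in *nup132Δ* and 0.471 in WT. On chromosome II the share was 0.534 in *nup132Δ* and 0.418 in WT at 1257 to 1260 kb. At 1809 to 1812 kb it was 0.318 in *nup132Δ* and 0.184 in WT.

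The *nup132Δ* RFB ON libraries, compared with WT RFB ON, were not used to choose these windows. Of the 18 lower windows, 17 departed in the same direction in each of the 4 libraries, where 49.4% to 50.5% of all windows did. Of the 11 higher windows, 11, 9, 10 and 9 did so in KK1901, KK1902, KK1518 and KK1517, against 49.5% to 50.6% of all windows. The 4 comparisons share the WT RFB ON library. Most departures therefore recurred in sign in these 4 libraries. A departure of 0.10 in the same direction was reached by 9, 4, 6 and 7 of the 18 lower windows in KK1901, KK1902, KK1518 and KK1517, where 1.18%, 1.06%, 3.69% and 0.672% of all windows reached it. Of the 11 higher windows 4, 3, 3 and 1 did so, against 1.42%, 1.15%, 3.36% and 0.5998% of all windows. Single sites differed in this. In the same order of libraries, the run at *pfl9* departed by only -0.0187, -0.0519, -0.0450 and -0.0251. The run at 1452 to 1458 kb of chromosome II departed by -0.0995, -0.0981, -0.133 and -0.0849. The window at 1809 to 1812 kb of chromosome II departed by 0.000665, -0.00920, 0.0640 and 0.0849.

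At origins, the fall in Pol δ Watson share was smaller in *nup132Δ* at most sites. The median fall was 0.391 in *nup132Δ* and 0.426 in WT over 431 origins. Among the 318 origins with a WT fall of at least 0.20, the median ratio of *nup132Δ* to WT was 0.926 (10th to 90th percentile 0.759 to 1.01), and 280 of them (88.1%) were below 1. This filter uses the WT fall, which is also the denominator, and so favours ratios below 1. The median ratio was 0.928 on chromosome I, 0.905 on II and 0.946 on III. At 31 origins the Pol δ share did not fall in either library, although the Pol ε share rose there. Averaged over 227 origins with a WT fall of at least 0.40 (without the low origins described next), the share was 0.741 in *nup132Δ* and 0.768 in WT in the 3 kb on the left. On the right it was 0.248 in *nup132Δ* and 0.225 in WT. These 227 were also chosen by the WT fall, which favours a larger fall in WT.

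**Figure D2:**
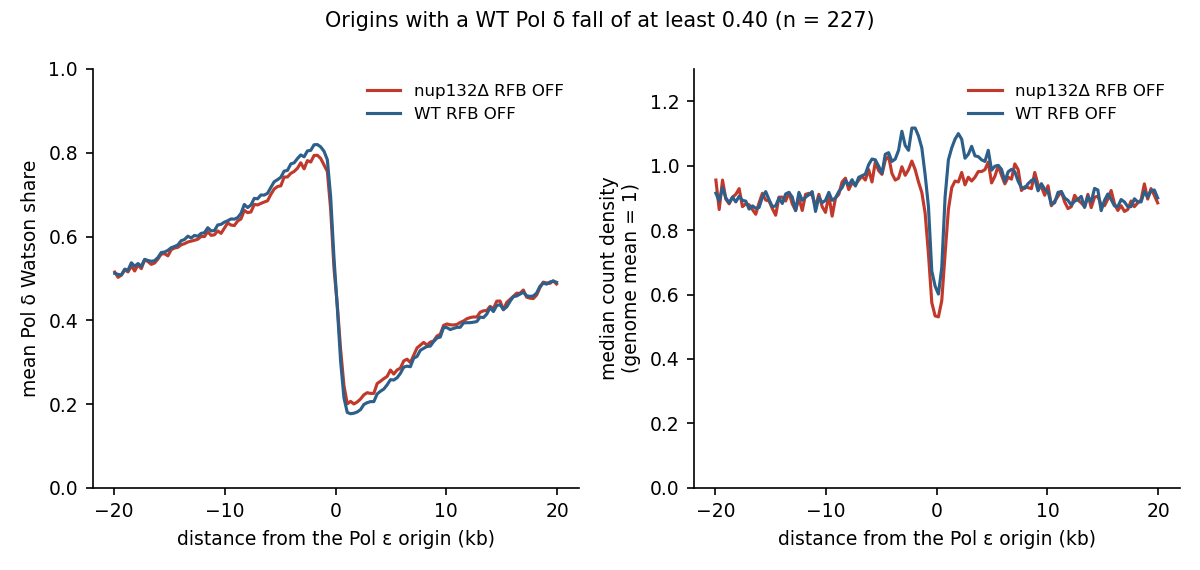
Mean Pol δ Watson share (left) and median count density relative to the genome mean (right) in bins of 300 bp, by distance in kb from the Pol ε origin, over the 227 origins with a WT fall of at least 0.40 that were not among the low origins. The *nup132Δ* share falls by less, and its density lies below that of WT within about 3 kb of the origin and beside it farther out.

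The reduction was relatively larger at weaker origins. In quartiles of the Pol ε rise, from weakest to strongest, the summed falls of *nup132Δ* were 0.717, 0.848, 0.906 and 0.928 of those of WT. The same ratio for WT RFB ON against RFB OFF was 1.07, 1.06, 1.06 and 1.06. The mean falls behind these ratios were 0.0816 in *nup132Δ* and 0.114 in WT in the weakest quartile, and 0.582 in *nup132Δ* and 0.627 in WT in the strongest. The mean departure from the scaled WT fall was -0.0230 in the weakest and 0.0050 in the strongest quartile, and 72.2% of the weakest and 40.7% of the strongest origins were below 0. Single origins spread about these means with SDs of 0.0426 and 0.0410.

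The 10 origins of highest Pol ε rise had a median ratio close to the 0.926 of the 318 origins with a WT fall of at least 0.20. Their falls were 0.304 to 0.756 in *nup132Δ* and 0.413 to 0.740 in WT, with a median ratio of 0.933, and 8 of 10 were lower in *nup132Δ*. The *lsk1* origin at 3952.8 kb of chromosome I had a fall of 0.673 in *nup132Δ* and 0.670 in WT, a difference within counting error. At the chromosome III origin at 1251 kb the fall was 0.756 in *nup132Δ* and 0.740 in WT. The fall was smaller in *nup132Δ*, with counting intervals that did not overlap those of WT, at the origin beside *pnk1*, the gene for a DNA end-processing kinase and phosphatase, at 2139.9 kb of chromosome I (0.304 in *nup132Δ* and 0.413 in WT). The same held at 1315.2 kb of chromosome II, at 0.421 in *nup132Δ* and 0.544 in WT. It also held at 569.7 kb (0.560 in *nup132Δ* and 0.623 in WT) and 3636.9 kb (0.591 and 0.667) of chromosome II. On chromosome III it held at 1820.4 kb (0.568 in *nup132Δ* and 0.612 in WT). At the rest of the 10 the intervals overlapped. None of the 10 departed from the scaled WT fall by 0.10.

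By that rule, 17 of 431 origins (3.94%) were lower in *nup132Δ* and 0 (0%) were higher. The origins were located in WT libraries, so sites gained in *nup132Δ* are missing and these counts cannot be weighed against each other. Between the WT libraries, RFB ON against RFB OFF, 1 was lower and 8 were higher. The highest departures were 0.0939 at 230.7 kb of chromosome III and 0.0803 at the *ura3* origin at 1387.2 kb of chromosome I, where the fall was 0.427 in *nup132Δ* and 0.377 in WT. A further one, 0.0792, lay beside the autophagy gene *atg6* at 1421.1 kb. The 17 low origins lie on chromosomes I (7), II (8) and III (2), with departures of -0.190 to -0.101, and the next origin outside the limit was at -0.0985. The number depended on the span and the set of origins: falls over 1.5 kb gave 53 lower and 3 higher, falls over 6 kb gave 9 lower, and 8 of the 318 origins with a WT fall of at least 0.20 were lower. With the WT RFB ON library in place of WT RFB OFF, 40 were lower and 0 higher. At all 17 the 95% counting intervals of the falls in *nup132Δ* and WT did not overlap. The 17 were chosen by the size of the difference in these same counts, so this adds no support.

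**Figure D3:**
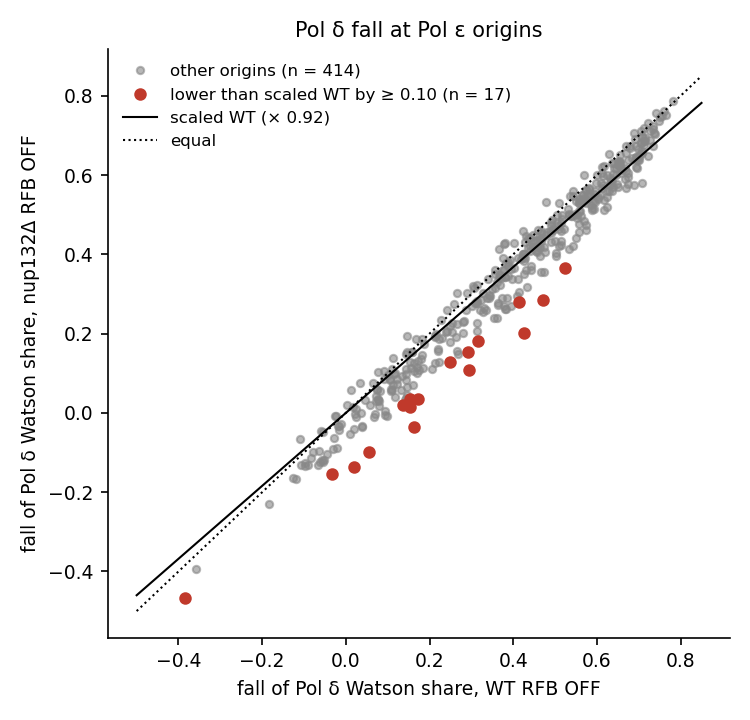
Fall of the Pol δ Watson share at each of 431 origins in *nup132Δ* (vertical axis) and WT (horizontal axis). The solid line is the WT fall times 0.92, the dotted line marks equal falls, and the 17 low origins are in red; no origin lies as far above the solid line.

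The most lowered origin was at 1459.5 kb of chromosome II, with a fall of 0.201 in *nup132Δ* and 0.425 in WT. Its left side had a share of 0.626 in *nup132Δ* and 0.755 in WT, and its right side 0.425 in *nup132Δ* and 0.331 in WT. Both sides were nearer to equal use of the strands in *nup132Δ*. At 1966.2 kb of chromosome II the share did not fall in *nup132Δ* (-0.0357), against a fall of 0.162 in WT. The *rpf2* origin at 3897.9 kb of chromosome I had a fall of 0.109 in *nup132Δ* and 0.295 in WT (95% intervals 0.0829 to 0.135 in *nup132Δ* and 0.273 to 0.316 in WT). Beside *shu1* at 85.2 kb of chromosome I, where WT had almost no fall (0.0183), the *nup132Δ* share rose across the site by 0.136. At 1257.6 kb of chromosome II the fall was 0.284 in *nup132Δ* and 0.472 in WT. The *mdb1* origin at 2883 kb of chromosome I had the strongest Pol ε rise of the 17 (0.735) and a fall of 0.365 in *nup132Δ* and 0.523 in WT.

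The 17 low origins were chosen by the left share minus the right, which favours a lower left and a higher right share. At all 17 the left share was lower and the right share higher in *nup132Δ*, by medians of -0.0745 and 0.0754. They were weaker origins on the whole, with a median Pol ε rise of 0.394 against 0.514 at the other 414, and 12 of the 17 lay in the second-weakest quartile. In WT, 9 of the 17 had a Pol δ fall under 0.20, so they include sites with little Pol δ signal of an origin, among them one beside the retrotransposon Tf2-8 at 5200.2 kb of chromosome I where the Pol δ share rose in both libraries. The nearest neighbouring origin was at a median of 14.1 kb, against 18.3 kb for the others, and closer than 15 kb at 10 of 17 (58.8%) against 36.2%. Within 12 kb on the left of a low origin lay 4 of the 12 lower runs of windows and within 12 kb on its right 3 of the 9 higher runs, where 1.60% of all windows lie on each side. Both measures use the same counts. The AT content of the low origins was close to that of the others. On chromosome I the median over the 3 kb around the 7 low origins was 66.5%, against 66.7% at the other 174 origins and 63.7% in 1474 stretches away from origins.

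The low origins were then read in libraries that had no part in their choice. In each of the 4 *nup132Δ* RFB ON libraries, all 17 had a fall below the scaled fall of WT RFB ON. Over all 431 origins the share below was 71.0% in KK1901, 79.8% in KK1902, 84.0% in KK1518 and 68.4% in KK1517. A departure of at least -0.10 in size was reached by 14, 15, 16 and 5 of the 17, against 12.8%, 17.2%, 33.2% and 6.03% of all origins in the same order. All 4 libraries were below at 17 of 17 low origins and at 199 of 431 origins (46.2%). The 4 comparisons share 1 WT RFB ON library, whose own departures from WT RFB OFF at these sites were below 0 at 8 of 17, and none of the 17 reached -0.10 there. It passed 0.10 at 2 of them, the origins at 1459.5 kb of chromosome II (0.130) and 5200.2 kb of chromosome I (0.113), where a high WT RFB ON fall enters the RFB ON comparisons. At the *rpf2* origin the fall was 0.00707, 0.0276, -0.0276 and 0.0661 in KK1901, KK1902, KK1518 and KK1517, and 0.318 in WT RFB ON.

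**Figure D4:**
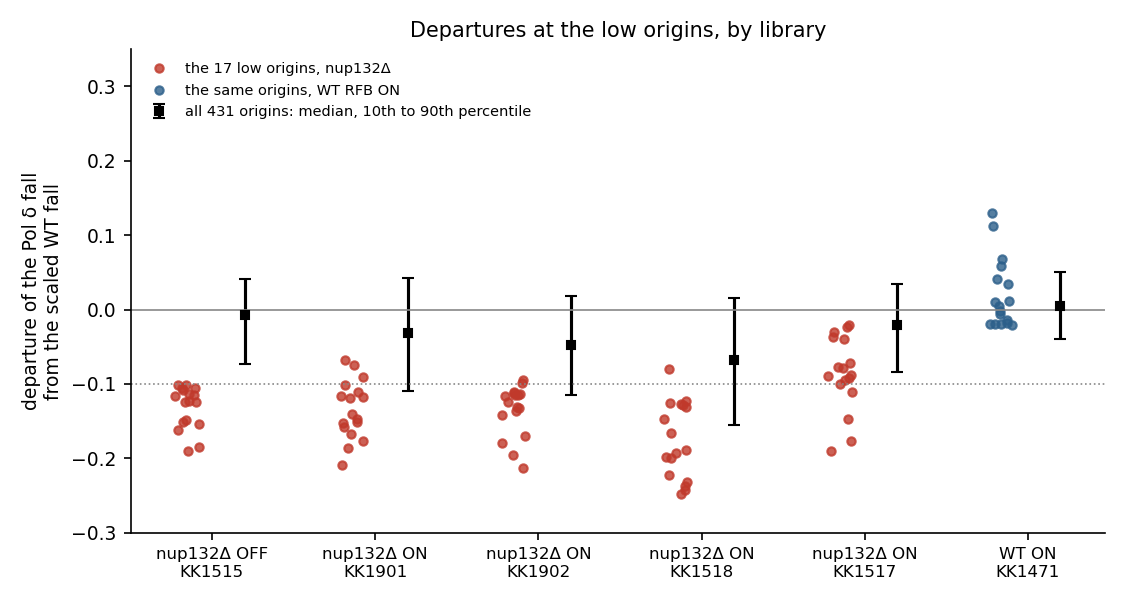
Departure of the Pol δ fall from the scaled WT fall at the 17 low origins (coloured points) in the *nup132Δ* RFB OFF library that chose them, in 4 *nup132Δ* RFB ON libraries against WT RFB ON, and in WT RFB ON against WT RFB OFF. Black squares and bars give the median and the 10th to 90th percentiles of all 431 origins; all red points lie below 0, and the blue points lie on both sides of it.

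Where they could be read in both libraries, the positions of origins and of fork merging did not move as a group. At 300 origins the bin of steepest Pol δ fall was the same in *nup132Δ* and WT at 203 (67.7%) and within 2 bins at 94.3%, with a median shift of 0 and an SD of 0.343 kb. In WT RFB ON against RFB OFF, 67.7% were in the same bin and 98% within 2 bins, with an SD of 0.270 kb. Between neighbouring origins, the Pol δ share rises through its centre where converging forks meet on average. In 189 of 427 gaps with a single such crossing in both libraries, its median shift in *nup132Δ* was 0.00739 kb, with quartiles of -0.294 and 0.294 kb and an SD of 0.702 kb. The shift stayed within 1 kb in 161 gaps (85.2%). The SD in WT RFB ON against RFB OFF was 0.424 kb over 168 gaps, and 95.8% stayed within 1 kb.

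Count density differed near strong origins. Counts per window over both strands, each divided by the library total, had an SD of 0.112 on the log2 scale between *nup132Δ* and WT. By a limit of 0.32 on the log2 scale in either direction, 0 windows (0%) were higher in *nup132Δ* and 47 (1.13%) lower, in 37 runs. The WT density was above that of the 5 other Pol δ libraries (WT RFB ON and *nup132Δ* RFB ON) in 38 of the 47. Among all windows this held in 15.7%. The *nup132Δ* density was below all 5 in 28 of the 47, against 8.01% of all windows. The 47 were chosen by a low ratio of *nup132Δ* to WT in these same counts. That choice favours a high WT and a low *nup132Δ* density, so these numbers do not show that either library stood apart. With the WT RFB ON library in place of WT RFB OFF, 30 windows were lower and 21 higher. Of the 47 windows, 34 (72.3%) lay within 3 kb of one of 231 origins with a WT fall of at least 0.40, where 10.4% of all windows lie. The median log2 ratio of *nup132Δ* to WT was -0.15 within 3 kb of such origins (434 windows), a fold of 0.901, and 87.6% of these windows were below 0. The *nup132Δ* library over WT RFB ON had a median of -0.10 in the same windows, and WT RFB OFF was above the 5 other libraries in 52.3% of them. Over WT RFB OFF, the *nup132Δ* median was -0.03 from 3 to 6 kb, 0.02 from 6 to 12 kb, 0.03 from 12 to 24 kb and 0.02 beyond. By origin, the median log2 ratio within 3 kb was 0.05 at 66 origins with a WT fall under 0.10 and -0.23 at 167 origins with a WT fall over 0.50, of which 157 were below 0.

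Other libraries showed smaller differences in the zone nearest to strong origins. Within 3 kb the median was -0.06 for WT RFB ON over WT RFB OFF, which shares the WT library, and -0.01 between the 2 WT Pol ε libraries. The 4 *nup132Δ* RFB ON libraries, over WT RFB ON, had medians of -0.05 to -0.08 within 3 kb and -0.08 to -0.12 from 3 to 6 kb. The low density thus reached farther out in these comparisons, while the RFB OFF value within 3 kb exceeds in size that of each library compared. Count density reflects DNA copy number and the ribonucleotides in both strands, which cannot be told apart here.

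**Figure D5:**
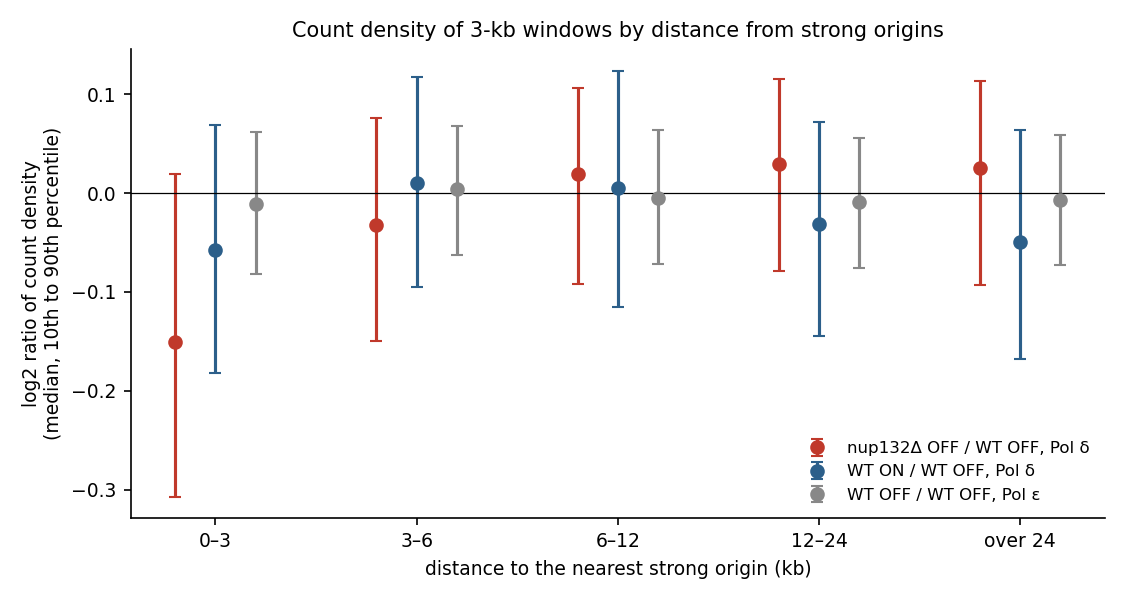
Median log2 ratio of count density in 3-kb windows (points, with 10th to 90th percentiles) by distance in kb to the nearest origin with a WT fall of at least 0.40, for *nup132Δ* over WT, both RFB OFF (red), for WT with the barrier active over WT with it inactive (blue), and between the 2 Pol ε libraries of WT RFB OFF (grey). Within 3 kb the *nup132Δ* median is -0.15, against -0.06 and -0.01.

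Of the 5 runs with the largest density differences, the first 2 lay at sites that also varied among libraries of 1 genotype. On chromosome II from 90 to 105 kb the relative density was 0.793 in *nup132Δ* and 1.86 in WT, but it was 0.756 and 1.59 in the 2 WT Pol ε libraries and 1.12 in WT RFB ON. From 36 to 39 kb of chromosome II it was 0.989 in *nup132Δ* and 1.75 in WT, with 1.07 to 2.75 in the 7 other libraries read. On chromosome III at 396 to 399 kb it was 0.889 in *nup132Δ* and 1.34 in WT, and the WT library was above the 7 others (0.865 to 1.08). At 1749 to 1755 kb the values were 0.758 in *nup132Δ* and 1.02 in WT, again the highest library, with 0.758 to 0.931 in the 7 others. The choice of these runs by their ratio in the same counts favours a high WT value. The window pair at 690 to 696 kb of chromosome II, which includes the window of the top positive share departure, was sparse in both (0.225 in *nup132Δ* and 0.302 in WT) and ranged from 0.172 to 0.655 in the others.

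Around the inactive barrier at 852 kb of chromosome II, the shares were those of mostly rightward forks in both strains. From 5 to 1 kb upstream, the Pol δ Watson share was 0.129 in *nup132Δ* and 0.117 in WT, a difference of 0.0112 (95% interval -0.0024 to 0.0249). From 1 to 3 kb downstream it was 0.0891 in *nup132Δ* and 0.0784 in WT, and from 4 to 6 kb 0.111 in *nup132Δ* and 0.102 in WT. The counting intervals of these differences included 0, as did that from 9 to 11 kb, where the shares were 0.197 in *nup132Δ* and 0.192 in WT. From 19 to 21 kb the share was 0.328 in *nup132Δ* and 0.365 in WT, a difference of -0.0371 (95% interval -0.0658 to -0.0081). With the barrier active in WT, the shares in the same 5 zones were 0.1003, 0.376, 0.533, 0.712 and 0.737. Neither RFB OFF library had such a rise within 6 kb past the site. Against the scaled WT share, *nup132Δ* departed by -0.0474 to -0.0190 in the 5 zones. None of the 20 windows within 30 kb departed by 0.10 from the scaled WT share (-0.0798 to 0.0318). The window just outside, at 819 to 822 kb, had 0.682 in *nup132Δ* and 0.825 in WT, a departure of -0.117. Against WT RFB ON, this window departed by -0.0931 in KK1518 and -0.115 in KK1517, but by 0.0317 in KK1901 and 0.0271 in KK1902. The origin at 823.8 kb, left of the barrier, had a fall of 0.434 in *nup132Δ* and 0.631 in WT, a departure of -0.146. It was left out of the 431 origins because of its distance to the barrier.

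Along the chromosomes, departures of one sign gathered at the ends of chromosome III and toward the right end of chromosome I. In the left 51 kb of chromosome III the mean share was 0.680 in *nup132Δ* and 0.645 in WT, a mean departure of 0.0471 over 17 windows. In the right 51 kb of chromosome III it was 0.353 in *nup132Δ* and 0.394 in WT, a mean departure of -0.0484. That end includes a window at 2445 to 2448 kb with a relative density of 19.2 in *nup132Δ* and 24.5 in WT. Its counts are far above the genome mean, and its share was 0.512 in *nup132Δ* and 0.585 in WT. Single windows of these ends spread with SDs of 0.0278 and 0.0311. At both ends the *nup132Δ* share lay farther from 0.5. The ends of chromosomes I and II had mean departures of -0.0116 to 0.0252. Of 126 blocks of 99 kb, the most negative ran from 5445 to 5544 kb of chromosome I, with a mean share of 0.3996 in *nup132Δ* and 0.441 in WT. Its mean departure was -0.0455, and 3 of its 33 windows, those at *pfl9*, passed 0.10. At centromere I, the 13 windows between its boundary elements had a mean share of 0.507 in *nup132Δ* and 0.502 in WT, and a median density fold of 0.913. The highest mean departure of a block was 0.0196, at the left end of chromosome I.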

How the data were processed

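The authors aligned Pu-Seq reads with Bowtie2 (named in the submitters' processing notes, version not given in the sources used here) and converted alignments to counts with a custom Perl script. The deposited counts are whole numbers per 300-bp bin and strand, not normalized. The genome build is not given in the sources used here. Forward counts were taken as Watson and reverse counts as Crick. Windows of 3 kb with at least 100 counts entered, except within 30 kb of the barrier and at *nup132* and *rtf1*. The barrier was placed at the largest fall of the Pol ε share in WT RFB ON beyond that in WT RFB OFF. Wilson intervals are for shares and Newcombe intervals for differences, at 95%. Reads are not independent molecules after PCR, so intervals cover counting error only. Chromosome ends of 51 kb and blocks of 99 kb are whole numbers of windows. The chromosome I genes named are protein-coding genes that overlap a window or lie nearest to an origin. Regions named were the barrier, the deleted genes, centromere I, the 10 origins of highest Pol ε rise, and up to 5 per direction among origins and runs of windows with the largest departures and among runs with the largest density ratios. The origins beside *mdb1* and Tf2-8, the pairs of values at 823.8 kb and the sequences were chosen after values were seen. The comparison, its lists and its limits were chosen with earlier results of these data known. The *rpn10Δ* libraries served only in the check of the deleted genes, from which 2 were left out, since these, labelled RFB ON, had *rtf1* counts at 0.0516 and 0.0554 of the flanking bins. Scripts were tested on simulated data. The software was Python 3.11.15, numpy 2.4.6, pandas 2.3.3 and matplotlib 3.10.9. Gene positions are from RefSeq, build ASM294v3.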

Additional observations from a re-analysis of the deposited data

How the results depend on the processing

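No paired analysis was possible because each genotype had 1 library, and for the same reason no library could be left out in turn. The size of the windows set the counts of departures. In windows of 1.5 kb, 61 windows were higher and 93 lower by share, 55 and 71 against the scaled WT share, and 10 and 161 by density. In windows of 6 kb these were 3 and 5, 2 and 4, and for lower density 8. Falls measured over 1.5 kb gave a median origin ratio of 0.892, with 53 origins lower and 3 higher, and over 6 kb 9 were lower. The genome-wide ratio was 0.969 from SDs in place of slopes, and 0.904 at its lowest. Of 96 alternatives, 76 stayed close to the value reported and 20 moved. Some of the 76 could hardly move. Pooling KK1468 into WT added 7167 counts, and a minimum of 300 counts per window left 4167 of 4168 windows. The number that stayed close is therefore no measure of robustness. No reversal was recorded, but counts of windows or origins cannot change sign, so for them this says nothing. The median fork merging shift did change sign. It was 0.00739 kb as reported, and -0.00506 and -0.00831 kb with shares smoothed over 5 and 21 bins. With both libraries thinned to equal totals it was -0.00201 kb. These shifts were counted as close, and the SD over gaps was 0.702 kb. Of the alternatives added after the data were seen, origins with a WT fall of at least 0.20 gave 8 lower, keeping origins near the barrier gave 18, and leaving out the run of windows with the lowest density ratio gave 42 windows of lower density. The WT RFB ON library in place of WT RFB OFF gave 40 lower origins, 30 windows of lower density and 21 of higher density. The difference between genotypes cannot be told apart from a difference between 2 cultures or libraries.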
